A study of Mus musculus with 7 samples.

Results

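Leukocyte adhesion molecules were followed in the choroid plexus of mouse embryos exposed to red blood cells. The group holds 9 genes chosen by name, Icam1, Icam2, Vcam1, Sele, Selp, Selplg, Madcam1, Alcam and Cd44, and all 9 are among the 40879 genes of the deposited table. Wild-type CD-1 embryos, an outbred stock, received either washed red blood cells, taken at E14.5 (embryonic day) from a donor litter, or saline. Choroid plexus of the lateral ventricles was pooled 24 h later, at E15.5, and its poly(A) RNA was sequenced. There were 3 libraries with red blood cells and 4 with saline, all of batch 1. The sources used here do not give the numbers of embryos and litters in a pool or the route of delivery, so the p-values below cover the spread among these 7 libraries and no more. Libraries of embryos given red blood cells are called treated below.

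White blood cells leave the circulation in steps, and each step has its own adhesion molecules. Selectins on the vessel wall (Sele, E-selectin, and Selp, P-selectin) catch sugar-decorated mucins such as Selplg on the leukocyte and let the cell roll. Integrins of the leukocyte then bind members of the immunoglobulin superfamily on the tissue cell, with LFA-1 and Mac-1 binding Icam1, LFA-1 also binding Icam2, the alpha4 integrins binding Vcam1 and Madcam1, and the cell stops and crosses. Alcam pairs with Cd6 or with itself, and Cd44 binds the matrix sugar hyaluronan. In the choroid plexus the capillaries are fenestrated, and the epithelium, which carries Icam1 and Vcam1 in the inflamed adult tissue, forms the barrier to the cerebrospinal fluid.

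Promoter sequence is shown for the 2 members with the largest differences, Icam1 and Madcam1, and for Cd44 and Alcam, one higher and the other nearly level, to set their upstream letters side by side. Sequences are from RefSeq on GRCm38.p6, an earlier build than that of the counts, which held promoters of 6 of the 9 members, and cover the 250 bases before the annotated start, 5′ to 3′ on the strand of the gene. Capitals mark matches, on either strand, to the NF-kB consensus, to the looser NF-kB form GGNNNTTCC, to the STAT element TTCNNNGAA or to the interferon regulatory factor element. The Icam1 window is chr9:21015690-21015939 (plus strand), the Madcam1 window chr10:79664309-79664558 (plus strand), the Cd44 window chr2:102901666-102901915 (minus strand) and the Alcam window chr16:52453082-52453331 (minus strand).
Icam1: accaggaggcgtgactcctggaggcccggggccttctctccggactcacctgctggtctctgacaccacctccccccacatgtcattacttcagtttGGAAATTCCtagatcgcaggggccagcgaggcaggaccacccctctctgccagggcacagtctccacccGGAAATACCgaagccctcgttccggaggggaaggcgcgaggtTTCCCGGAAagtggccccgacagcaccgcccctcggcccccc
Madcam1: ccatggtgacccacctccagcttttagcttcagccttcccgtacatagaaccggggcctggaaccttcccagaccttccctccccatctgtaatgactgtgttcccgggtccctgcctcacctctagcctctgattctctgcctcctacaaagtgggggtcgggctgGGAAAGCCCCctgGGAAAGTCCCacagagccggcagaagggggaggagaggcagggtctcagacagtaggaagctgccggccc
Cd44: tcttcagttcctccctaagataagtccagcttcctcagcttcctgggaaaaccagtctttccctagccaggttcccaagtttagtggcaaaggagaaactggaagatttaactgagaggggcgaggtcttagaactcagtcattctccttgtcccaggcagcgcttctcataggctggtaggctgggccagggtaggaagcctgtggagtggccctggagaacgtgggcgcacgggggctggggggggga
Alcam: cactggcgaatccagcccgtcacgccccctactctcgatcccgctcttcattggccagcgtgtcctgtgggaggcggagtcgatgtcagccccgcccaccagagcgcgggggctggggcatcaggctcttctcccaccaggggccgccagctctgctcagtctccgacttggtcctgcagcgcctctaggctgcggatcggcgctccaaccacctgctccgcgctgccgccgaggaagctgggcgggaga

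In the letters printed above, Icam1 held GGAAATTCC and GGAAATACC, the latter a match when read on the other strand, whose first bases lie 153 and 84 bases before the start, and the STAT element TTCCCGGAA 42 bases before it. Madcam1 held a pair of NF-kB consensus matches, GGAAAGCCCC and GGAAAGTCCC as printed, 83 and 70 bases before the start. Both match when read on the other strand, and the looser form overlaps both. The windows of Cd44 and Alcam held no match to these 4 motifs. Among the 6 member promoters, the looser NF-kB form was in 4 (Icam1, Madcam1, Sele and Selp), against 15.66% of 32851 promoters in the table. The consensus was in 1 (Madcam1, 7.25% of all), the STAT element in 2 (Icam1 and Sele, 7.02%) and the interferon regulatory factor element in 0 (2.98%). The AP-1 motif TGANTCA was in 2 (Sele and Selp, 6.75%) and TATAAA in 1 (Sele, 12.37%), and neither is in capitals. A match describes letters of the window and is not evidence of a bound site.

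Total counts ran from 4393860 to 8386928 per library. A gene with 3 counts had between 0.358 and 0.683 CPM (counts of a gene per 1000000 counts of the library). Epithelial markers of the choroid plexus (Ttr, Otx2, Clic6, Kcne2, Folr1, Aqp1, Krt18 and Enpp2) summed to between 18321 and 23402 CPM per library, so the defining genes of the labelled tissue were present in all 7. Red blood cells 2 lay farthest out on the first principal component of log2 CPM (38.9% of the variance, coordinate -36.3), and saline 4 on the second (24.6%, coordinate -24.6). In bulk tissue, more cells that carry a transcript and more transcript per cell cannot be told apart.

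Icam1, Madcam1, Cd44 and Vcam1 were higher in each of the 3 libraries with red blood cells than in any saline library, while Icam2 and Alcam had nearly the same mean in both groups. The fold differences were 12.2 for Icam1, 7.18 for Madcam1, 2.55 for Cd44 and 1.42 for Vcam1. Of the 9 members, 7 had enough counts to be tested, and 0 of these passed the edgeR quasi-likelihood test after Benjamini-Hochberg adjustment over all 14869 genes (threshold 0.05), where 0.0605% of genes passed in either direction and 0.0404% as higher. An unadjusted p under 0.05 was reached by 5 members, all higher, where 5.22% of all genes did so in that direction and 4.32% as lower. The log2 fold change was positive for 6 of the 7 (49.9% of genes) and at least 1 for 4 of them (1.82%). DESeq2 called 4 members, Icam1, Madcam1, Cd44 and Vcam1 (1.42% of genes called as higher), limma-voom called 0 (0.0605% of genes in either direction) and limma-voom with sample weights called 2, Icam1 and Vcam1 (0.323%). The groups did not overlap for 4 of the 7, and 4.96% of genes tested had every red blood cell library above every saline library. Earlier results for Icam1 and Vcam1 were known when the genes were chosen, so these shares are a description.

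**Figure D1:**
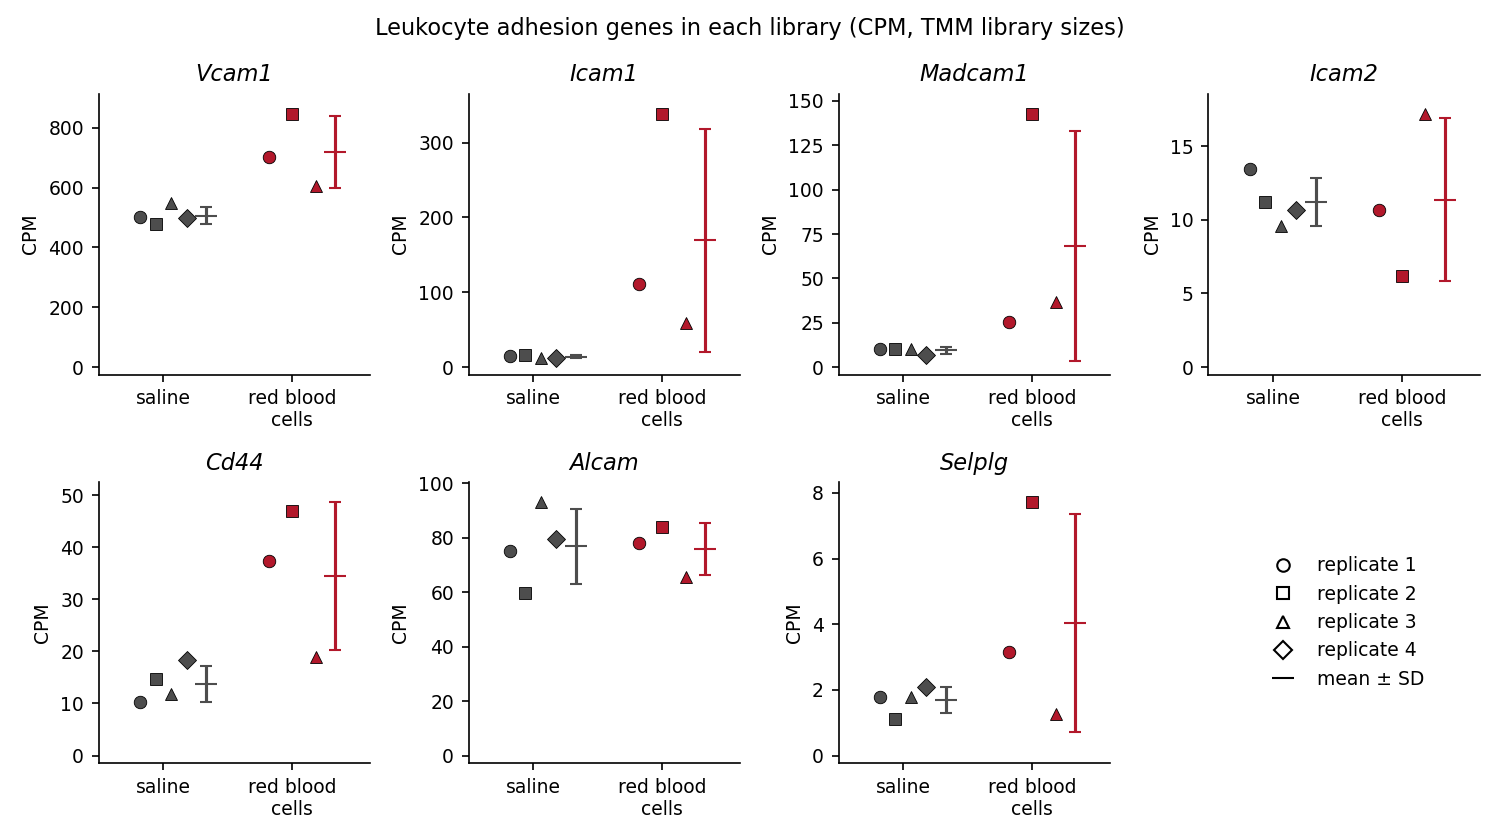
CPM (on normalized library sizes, y axis, linear) of the 7 tested members in each library, with saline in grey, red blood cells in red, a symbol per replicate number, and the mean and SD beside the points. Red blood cells 2 (square) is the highest point for Icam1 (339 CPM), Madcam1 (143 CPM), Vcam1, Cd44 and Selplg, and the lowest for Icam2.

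Icam1, the integrin ligand of firm adhesion, lies on chromosome 9 of GRCm39 (20927236 to 20940110, plus strand). Its level was 111, 339 and 58.5 CPM in treated libraries 1, 2 and 3 against 14.9, 15.7, 12.6 and 12.0 CPM in saline libraries 1 to 4. The treated libraries thus differed among themselves more than any saline library differed from another, and the lowest of them still lay far above the highest saline library. The means were 169 ± 149 and 13.8 ± 1.79 CPM (SD, n = 3 and n = 4), and edgeR put the log2 fold change at 3.61 ± 0.70 (SE), adjusted p = 0.176. Icam1 ranked 26 of 14869 genes by log2 fold change. With red blood cells 2 left out the log2 fold change was 2.62 ± 0.25 and the edgeR adjusted p 0.0176. The edgeR adjusted p was 0.254 without red blood cells 1 and 0.0587 without red blood cells 3. It ran from 0.304 to 0.438 when a saline library was left out.

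Madcam1, the mucosal vascular addressin, binds the integrin alpha4beta7 and is best known from gut venules. The gene spans 79500393 to 79504376 of chromosome 10 (plus strand, GRCm39). Raw counts were 203, 944 and 203 in the treated libraries against 68, 65, 85 and 29 in the saline ones, or 25.5, 143 and 36.8 CPM against 10.0, 10.4, 10.2 and 6.72 CPM. Here too red blood cells 2 was far above the others, and the lowest red blood cell library, 1, stood at 2.73 times the saline mean. The group means were 68.3 ± 64.7 and 9.34 ± 1.76 CPM (SD, n = 3 and n = 4). The log2 fold change was 2.84 ± 0.72 (SE, edgeR adjusted p = 0.269), rank 35 of all genes tested. Without red blood cells 2 it was 1.71 ± 0.19, with an edgeR adjusted p of 0.00406. The edgeR adjusted p was 0.211 without red blood cells 1 and 0.205 without red blood cells 3. It ran from 0.434 to 0.561 when a saline library was left out.

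Vcam1, the ligand of the alpha4beta1 integrin, was the most abundant member by far. It occupies 115903669 to 115923337 of chromosome 3 (minus strand, GRCm39). Levels were 702, 847 and 607 CPM after treatment against 501, 480, 547 and 499 CPM after saline. The treated libraries spread more than the saline ones, and the groups did not overlap. The means were 718 ± 121 and 507 ± 28.5 CPM (SD, n = 3 and n = 4), and edgeR put the log2 fold change at 0.50 ± 0.10 (SE, adjusted p = 0.104). Leaving out red blood cells 3, the lowest of its group, gave 0.61 ± 0.08 and an edgeR adjusted p of 0.00350. Leaving out red blood cells 2 gave 0.37 ± 0.08 and an edgeR adjusted p of 0.142.

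Icam2, the constitutive endothelial relative of Icam1 (chromosome 11, 106268482 to 106278948, minus strand, GRCm39), did not follow it. Treated libraries 1 to 3 held 10.7, 6.20 and 17.2 CPM of it, and saline libraries 1 to 4 held 13.4, 11.2, 9.57 and 10.7 CPM. Red blood cells 2, the highest library for Icam1, was the lowest for Icam2, and red blood cells 3 was the highest. The log2 fold change was 0.00 ± 0.29 (SE, edgeR adjusted p = 0.998), and its sign turned with single libraries (0.296 without red blood cells 2 and -0.397 without red blood cells 3). On the TPM scale, which divides counts by exon length and sums to 1000000 in each library, the ratio of Icam1 to Icam2 was between 0.686 and 0.865 in the saline libraries and 6.41, 33.7 and 2.10 in red blood cells 1, 2 and 3.

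Alcam, an adhesion molecule of epithelia and neurons as well as of leukocytes (chromosome 16, 52069359 to 52273444, minus strand, GRCm39), stood at 78.0, 83.9 and 65.4 CPM in the treated libraries against 75.2, 59.7, 92.9 and 79.4 CPM in the saline ones. The groups overlapped fully, with the treated libraries inside the saline range. Its log2 fold change was -0.02 ± 0.14 (SE, edgeR adjusted p = 0.988), and the sign changed with single libraries.

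Transcripts of the vascular selectins were near or at the limit of detection in both groups. Sele (chromosome 1, 163867200 to 163886056, plus strand, GRCm39) had 0 counts in all 7 libraries, or 0 of 45909194 counts, which allows a level of up to 0.0653 CPM (3 counts over all libraries, counting error only). Selp (chromosome 1, 163942833 to 163977595, plus strand) had 3 counts in all, 1 each in red blood cells 2, red blood cells 3 and saline 4. It shares 438 exon bases with Gm16548 on the other strand, which had 40 counts over the 7 libraries. No fold change was computed for either gene.

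Selplg, the leukocyte mucin that P-selectin binds (chromosome 5, 113955859 to 113970576, minus strand, GRCm39), had 25, 51 and 7 counts in the treated libraries against 12, 7, 15 and 9 in the saline ones. The groups overlapped, since red blood cells 3, at 1.27 CPM, lay inside the saline range of 1.12 to 2.08 CPM. The means were 4.04 ± 3.32 and 1.69 ± 0.41 CPM (SD, n = 3 and n = 4), and the log2 fold change was 1.27 ± 0.52 (SE, edgeR adjusted p = 0.437). Without red blood cells 2 it was 0.44 ± 0.45.

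Cd44, the hyaluronan receptor (chromosome 2, 102641486 to 102732014, minus strand, GRCm39), stood at 37.4, 46.9 and 19.0 CPM in treated libraries 1, 2 and 3 against 10.3, 14.6, 11.8 and 18.3 CPM in saline libraries 1 to 4. Red blood cells 1 and 2 stood apart, and red blood cells 3 lay just above saline 4. The means were 34.4 ± 14.2 and 13.8 ± 3.50 CPM (SD, n = 3 and n = 4), and edgeR put the log2 fold change at 1.35 ± 0.32 (SE, adjusted p = 0.187). Without red blood cells 3 it was 1.64 ± 0.19, with an edgeR adjusted p of 0.00295, and without red blood cells 2 it was 1.07 ± 0.30 (edgeR adjusted p = 0.390).

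The order of the members changed between the groups when levels were set per exon length. With saline, mean TPM ran from 452 for Vcam1 through 46.2 for Alcam, 21.4 for Icam2, 19.7 for Madcam1, 16.3 for Icam1, 7.24 for Cd44 and 1.90 for Selplg to 0.0492 for Selp. In that order Icam2 and Madcam1, and Madcam1 and Icam1, had overlapping ranges over the 4 libraries, as did Selp and Sele, and the other neighbours were separate. With red blood cells Vcam1 was again first, at 632 TPM, followed by Icam1 (194), Madcam1 (140), Alcam (45.0), Icam2 (21.6), Cd44 (17.9), Selplg (4.44) and Selp (0.0963). The ranges of Icam1 and Madcam1, of Icam2 and Cd44, and of Selp and Sele overlapped over the 3 libraries. Icam1 and Madcam1 were thus below Alcam in every saline library and above it in every red blood cell library.

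Summed markers of several cell types also varied among the libraries. Of the 8 epithelial markers 0 had a positive log2 fold change (49.9% of all genes), with a median of -0.1 and 0 past the edgeR threshold. The 10 endothelial markers (among them Kdr, Tek and Plvap), all detected, summed to 783, 713 and 1097 CPM in red blood cells 1, 2 and 3 and to between 874 and 932 CPM with saline. The sum was thus lowest in red blood cells 2, where Icam1, Madcam1 and Vcam1 were highest. Icam2 had the same order over the treated libraries, at 0.951, 0.552 and 1.53 times its saline mean beside 0.878, 0.800 and 1.23 times for the endothelial sum. The 8 mural and stromal markers ran from 1291 to 2260 CPM in treated and from 1510 to 1657 CPM in saline libraries, red blood cells 3 being the highest. Their sum had the same order as Icam2 too, at 0.926, 0.798 and 1.40 times its saline mean in red blood cells 1, 2 and 3. The part of either cell type in the values of Icam2 was not tested.

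The sums of macrophage and of pan-leukocyte markers were higher in each treated library than in any saline library. The 10 macrophage markers, all detected, summed to between 356 and 516 CPM in treated and 226 and 298 CPM in saline libraries. Of them 10 of 10 had a positive log2 fold change (49.9% of all genes), with 1 (Adgre1) past the edgeR threshold (0.0404% as higher). Only Mrc1 had overlapping groups in CPM, where 4.96% of all genes had every treated library above every saline library. For the 7 lymphocyte and pan-leukocyte markers (Ptprc and Coro1a among them) the sums were 39.0, 75.8 and 30.5 CPM after treatment and between 17.7 and 25.1 CPM after saline. Of these, the T-cell and B-cell genes Cd3e, Cd3g and Cd79a were below the count filter and Nkg7 was listed at 0. Lck, a T-cell gene that could be tested, had 5.97 ± 0.65 CPM after treatment and 5.62 ± 1.18 CPM after saline (SD, n = 3 and n = 4), and its groups overlapped (log2 fold change 0.08 ± 0.22, edgeR adjusted p = 0.957). Neutrophil markers summed to 80.6 CPM in red blood cells 2, to 5.54 and 9.31 CPM in red blood cells 1 and 3, and to between 2.57 and 18.7 CPM with saline, with Ly6g at 0 in every library. Only S100a9 and S100a8 of that list passed the count filter, with 294 and 111 counts in red blood cells 2, the largest of the list there. Their groups overlapped. Below the filter, Ltf, Ngp and Elane had lower mean CPM in treated than in saline libraries, and Retnlg, Mmp8, Mpo and Cxcr2 had higher means. Of the list only Cxcr2 had groups that did not overlap in CPM (4.96% of genes tested as higher). Its counts were 6, 49 and 5 in treated and 3, 1, 4 and 1 in saline libraries. Platelet and megakaryocyte markers ran from 27.8 to 41.8 CPM and from 25.8 to 28.4 CPM, and the 8 erythroid markers from 1916 to 2276 CPM and from 1854 to 2613 CPM. The part of these cells in the values of Icam1, Madcam1, Vcam1, Cd44 and Selplg was not tested.

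**Figure D2:**
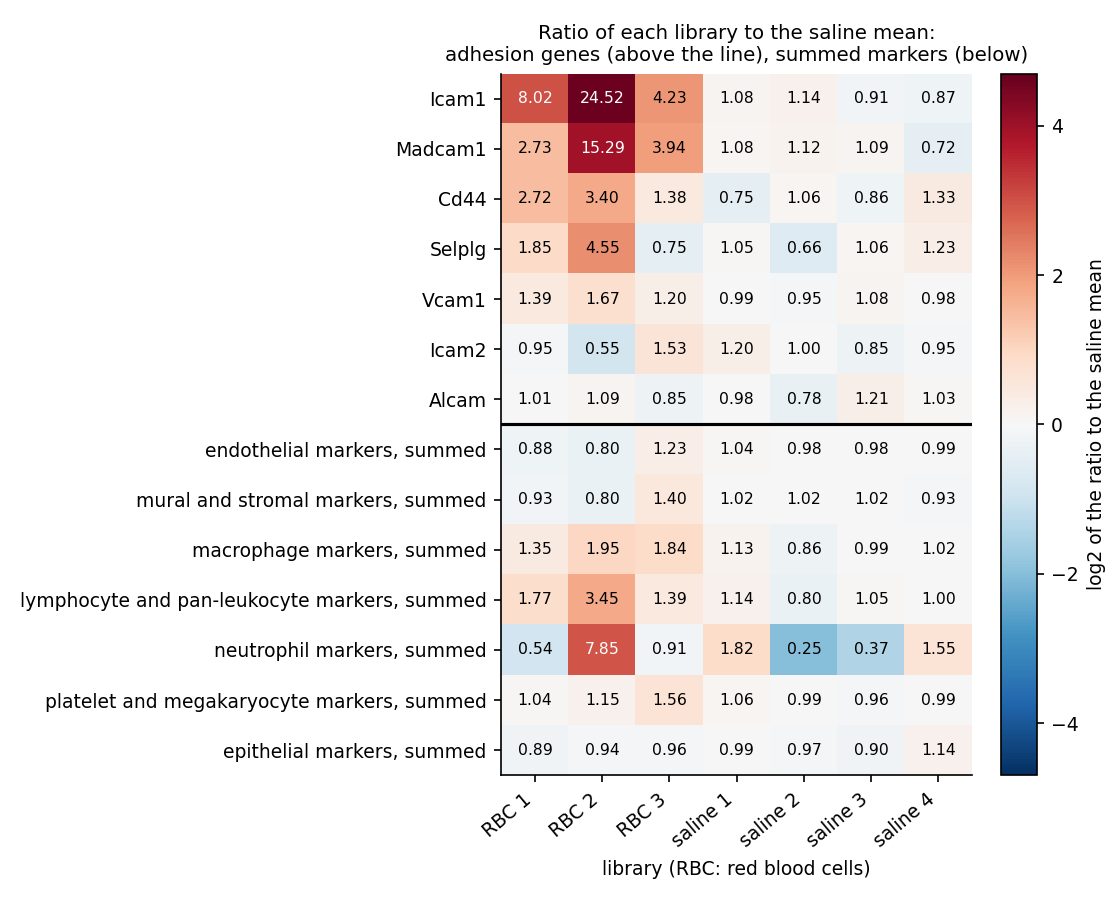
Ratio of each library to the saline mean (number in each cell, colour on a log2 scale) for the 7 tested members, above the line, and for the summed CPM of 7 marker lists, below it. In red blood cells 2 Icam1 reached 24.5 times and Madcam1 15.3 times the saline mean while the endothelial sum was at 0.800 and the neutrophil sum at 7.85.

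The leukocyte side of the contact was read from a list of integrin genes, one of 5 lists of partner genes. Of its 9 genes 7 could be tested, 5 higher and 2 lower, with a median log2 fold change of 0.438 where the median of all genes was -0.000342. In edgeR 0 passed after adjustment, 3 had an unadjusted p under 0.05, all higher (5.22% of all genes), and DESeq2 called 1, Itgb2 (1.42% of all genes called as higher). Those of highest mean count, not corrected for exon length, were Itgb1 and Itga4, which together form the receptor of Vcam1. Their log2 fold changes were -0.02 ± 0.07 and 0.44 ± 0.25 (SE, edgeR adjusted p = 0.965 and 0.671). The 3 with a low unadjusted p, named after their values were seen, were Itgb2, Itgam and Itgal, which encode the chains of LFA-1 and Mac-1, the receptors of Icam1. Itgb2 had 55, 96 and 41 counts in the treated libraries against 24, 17, 26 and 25 in the saline ones (log2 fold change 1.38 ± 0.33, edgeR adjusted p = 0.138), and its groups did not overlap in CPM. Itgam had 122, 287 and 54 counts in the treated libraries against 45, 29, 82 and 32 in the saline ones (1.67 ± 0.56, edgeR adjusted p = 0.387). Itgal had 24, 74 and 24 against 23, 12, 24 and 13 (1.13 ± 0.43, edgeR adjusted p = 0.394). For both the groups overlapped in CPM, and red blood cells 2 was the highest library.

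Lists for the later steps and for the selectin ligands had medians near 0. Of 10 transmigration and junction genes, all tested, 4 were higher and 6 lower (median -0.0213), with 0 called by edgeR or DESeq2 and 0 at an unadjusted p under 0.05. The endothelial cadherin gene Cdh5 had 0.08 ± 0.17 and the junctional adhesion gene F11r -0.11 ± 0.07 (log2 fold change, SE). Of 10 genes that build or sulfate selectin ligands 8 were tested, 5 higher and 3 lower (median 0.103), and 0 were called. B4galt1 (0.25 ± 0.08) and St3gal6 (0.09 ± 0.14) had the highest mean counts, not corrected for exon length. At an unadjusted p under 0.05 there was 1 higher, B4galt1, where 5.22% of all genes were, and 1 lower, Chst2 (-0.33 ± 0.13, named after its value was seen), where 4.32% of all genes were. Of 7 sialomucin and other selectin ligand genes 5 were tested and all 5 were lower (median -0.112, 0 called by edgeR or DESeq2, 1 lower at an unadjusted p under 0.05, where 4.32% of all genes were, Cd24a at -0.25 ± 0.08, named after its value was seen). Those of highest mean count were Glg1 (-0.12 ± 0.06) and Podxl (-0.07 ± 0.07). On the TPM scale Podxl lay below Cd24a and Cd34 in every library.

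Partners of Cd44 and Alcam made up the last list, with hyaluronan synthases and hyaluronidases, the ezrin, radixin and moesin linkers, Spp1 and Cd6. Of 10 genes 7 were tested, 3 higher and 4 lower (median -0.0409), and 0 passed in edgeR. The linkers Ezr and Rdx had log2 fold changes of -0.04 ± 0.07 and -0.04 ± 0.08 (SE). Moesin, Msn, named after its value was seen, was the 1 gene of the list with an unadjusted p under 0.05 (5.22% of all genes as higher) and the 1 that DESeq2 called (1.42% as higher). Its counts corresponded to 174 ± 14.4 and 142 ± 4.33 CPM in the treated and saline groups (SD, n = 3 and n = 4), and edgeR gave 0.29 ± 0.07 (SE, adjusted p = 0.140). Has1 and Has2 lay below the count filter, and Cd6, the Alcam ligand of lymphocytes, had 0 counts in all libraries.

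**Figure D3:**
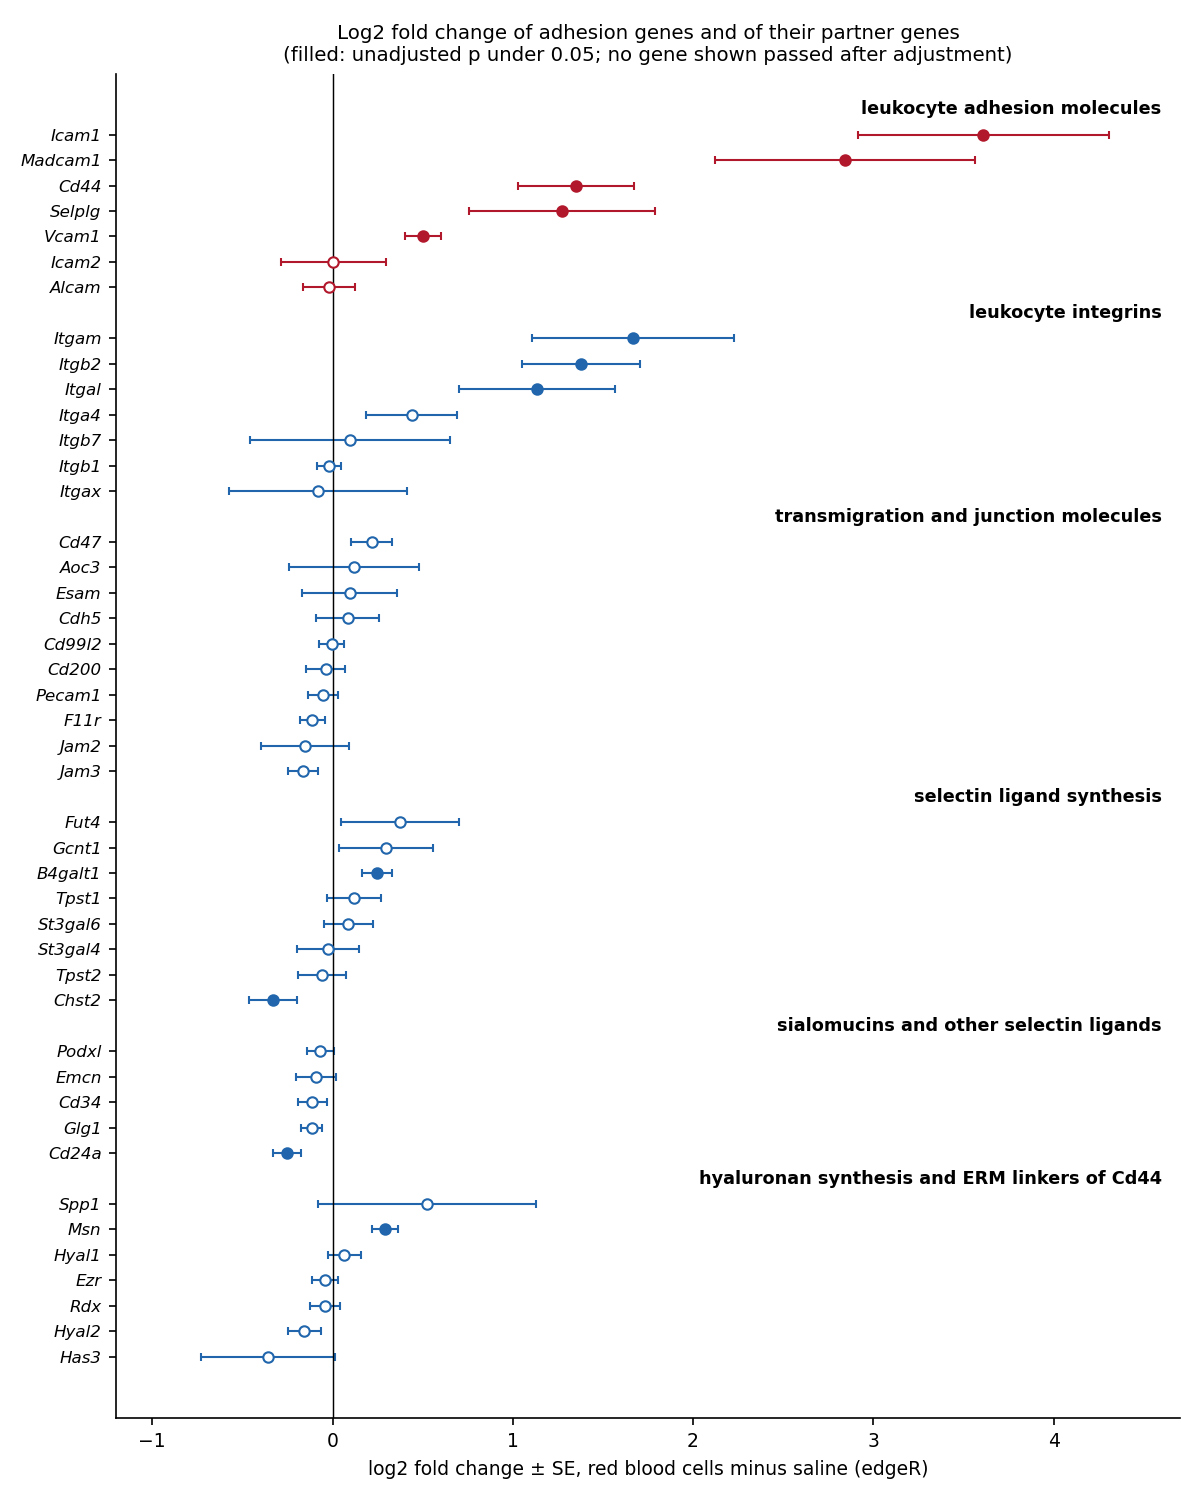
Log2 fold change with its SE (x axis, red blood cells minus saline, edgeR) for the tested members, in red, and for the tested genes of 5 partner lists, in blue. Icam1 (3.61) and Madcam1 (2.84) lie to the right of every partner gene shown, the largest of which is Itgam (1.67), and filled points have an unadjusted p under 0.05.

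Genes with the profile most like a member were taken by Pearson correlation of log2 CPM over the 7 libraries, among 11239 other genes with a mean count of at least 50. The libraries differ in group and in depth, and red blood cells 2 is the highest library for Icam1, Vcam1, Cd44 and Madcam1, so r is given as a description. Nearest to Icam1 were Lgals3bp (r = 0.996), Nfkbie (0.991), Ifitm3 (0.991) and Igtp (0.988). Nearest to Vcam1 were Klhl42 (0.993), Rtp4 (0.992), Ifih1 (0.990) and Vwa5a (0.990), and nearest to Cd44 were Txnrd1 (0.984), Ptpa (0.981), Smoc1 (0.976) and Hgs (0.969). Nearest to Alcam were Zfp420 (0.983), Mtdh (0.980), Peak1 (0.972) and Hsdl2 (0.970). Madcam1, added after its values were seen, was closest to Birc3 (0.995), Arhgap30 (0.988), Plgrkt (0.973) and Samd9l (0.972). Lgals3bp, the closest to Icam1, averaged 602 CPM in treated and 170 CPM in saline libraries, and Birc3, the closest to Madcam1, had 11.4 and 5.15 CPM.

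**Figure D4:**
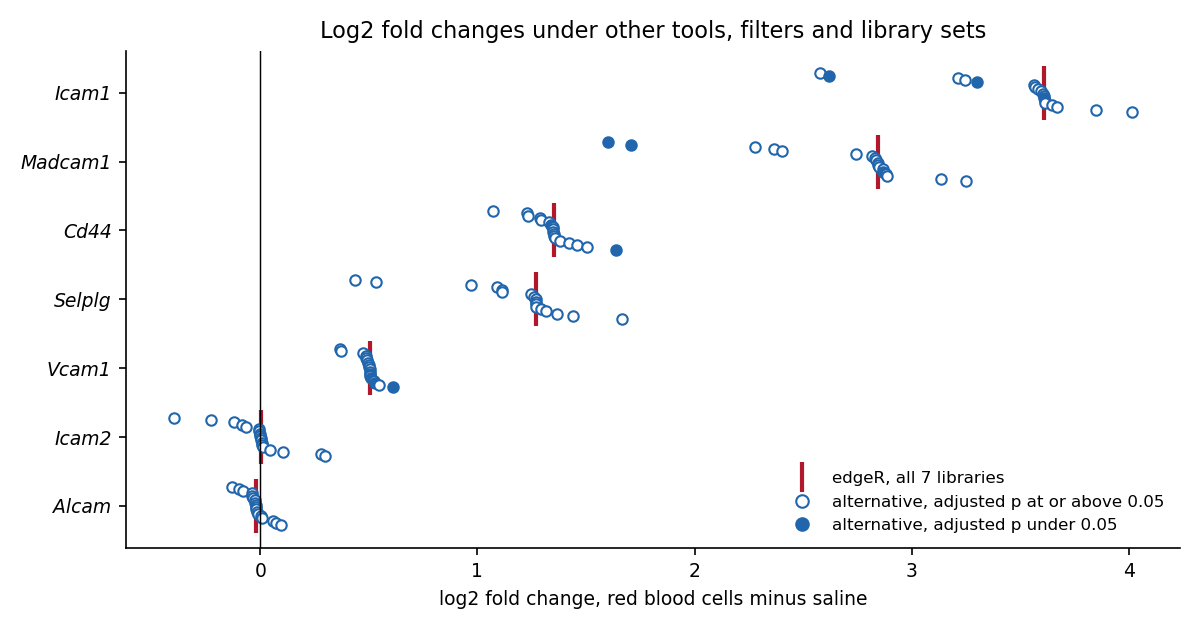
Log2 fold change of the 7 tested members (x axis, red blood cells minus saline) with edgeR on all libraries (red bar) and under each alternative tool, normalization, filter or set of libraries (circles, filled where the adjusted p is under 0.05). Icam1, Madcam1, Cd44, Selplg and Vcam1 stay to the right of 0 throughout, from 0.366 for the lowest value of Vcam1 to 4.01 for the highest of Icam1, while Icam2 and Alcam lie on both sides of 0.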

How the data were processed

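RNA of 7 libraries (3 with red blood cells, 4 with saline) was analysed from raw read counts per gene that the authors deposited in the column layout of featureCounts. Tools named in the submitters' processing notes are featureCounts 2.0.6, STAR 2.6.1b and cutadapt 2.5, with GRCm39 as the build. The handling of strand and multi-mapped reads, like the annotation release, was not given in the sources used here. The lines of 6 genes are broken over 2 lines, and these genes were left out with 0.1066% of all counts. Exon lengths in bases are those of the deposited table, per the file headers.

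Counts were tested with edgeR 4.0.16 (quasi-likelihood F test, robust, two-sided, R 4.3.3) over the 14869 genes that filterByExpr kept, with TMM normalization, which scales library sizes by a trimmed mean of gene ratios. P-values were adjusted by Benjamini-Hochberg over all genes. A positive log2 fold change means more after red blood cells, and its SE is the change divided by the square root of F. CPM uses TMM library sizes for single genes and total counts for marker sums, and TPM uses exon lengths. Alternatives were DESeq2 1.42.0, limma-voom (limma 3.58.1) with and without sample weights, other normalizations and filters, a replicate block and left-out libraries. The test was tried on simulated counts. Of each partner list up to 4 genes past the threshold are named or, with none, the 2 of highest mean count. Members, lists and alternatives were chosen with earlier results of these data known. A gene of the integrin list and one of the lymphocyte list are not reported here. Figures were drawn with matplotlib 3.10.9.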

Additional observations from a re-analysis of the deposited data

Results flagged for a closer look

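A single saline library stood apart from the other 3 for 2 of the 17 genes examined, by the size of its gap relative to the range of the group, which chance reaches in about 1 in 20 groups. Saline 4 had 6.72 CPM of Madcam1, where the other saline libraries had 10.0 to 10.4 CPM. Saline 1 had 160 CPM of Podxl, a sialomucin gene, where the others had 140 to 142 CPM. Without saline 4 the log2 fold change of Madcam1 was 2.75 ± 0.86 (SE).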

How the results depend on the processing

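Limits of these results include the small number of libraries in both groups, the spread of the 3 red blood cell libraries and low counts of Selplg, Selp and Sele. Over 18 alternatives (17 for Selplg), Icam1, Madcam1, Cd44, Selplg and Vcam1 kept a positive log2 fold change. The edgeR adjusted p of Icam1 ran from 0.0176 (without red blood cells 2) to 0.438 (without saline 1) over left-out libraries.

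Members called numbered 0 in edgeR, 4 with DESeq2, 2 with limma-voom with sample weights, 1 (Vcam1) without the count filter, 1 (Icam1) without robust estimation, 1 (Madcam1) without red blood cells 2 and saline 4, and 0 to 2 over left-out libraries (2 without red blood cells 2, Icam1 and Madcam1, and 2 without red blood cells 3, Vcam1 and Cd44). Genes called numbered 9 in edgeR, 277 with DESeq2, 48 with limma-voom with sample weights, 136 without the count filter, 16 without robust estimation, 40 without red blood cells 2 and saline 4, and 1 to 283 over left-out libraries (283 without treated library 3, 34 without treated library 2, 17 without treated library 1, 5 without saline 4 and 1 when any other saline library was dropped). Partner genes called numbered 0, with 2 in DESeq2 (Itgb2 and Msn), 1 without the count filter and 0 to 1 over left-out libraries (B4galt1, without red blood cells 3). The causes were not tested.

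Signs turned for values near 0, none of them called. Icam2 had -0.12 with limma-voom, -0.225 with sample weights, -0.006 with upper quartile normalization and -0.397 to 0.296 over left-out libraries. Alcam had 0.059 with sample weights and -0.13 to 0.096 over left-out libraries. Cdh5 had -0.067 with sample weights, and Itgb1 had 0.041 and Rdx 0.022 without red blood cells 2 and saline 4. Over left-out libraries Itgb1 ran from -0.063 to 0.015, Cdh5 from -0.188 to 0.206 and St3gal6 from -0.091 to 0.241.

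With replicate number as a block, genes called numbered 2, members and partner genes 0, and Icam2, Alcam and Itgb1 had -0.085, 0.01 and 0.007. Deviations of libraries with the same number correlated at -0.0133, -0.177 and -0.19 for numbers 1, 2 and 3. For libraries with different numbers the values ran from -0.223 to 0.279. So few libraries cannot show whether the numbers pair them, and pairing remains unknown. In a window of 100 bases before the start, the STAT element was in 1 member promoter and the AP-1 motif in 1.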
